A study of Mus musculus with 24 samples.

Results

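Gene expression in the cerebellum was compared between mice lacking glutamine synthetase in the liver (KO) and wild-type mice (WT), using the 4 KO and the 4 WT cerebellum arrays among the 24 arrays of the series. The remaining 16 arrays held cerebral cortex and hippocampus of both genotypes, again with 4 per group. Each array measured total RNA of a brain tissue biopsy from 1 animal, and the animals are called WT 1 to 4 and KO 1 to 4, as numbered in the labels. No treatment is named for either group, and the sources used here give no strain, age or sex. The deletion acts in the liver, so the brain cells of the KO animals keep their own enzyme, and neither the promoter that drove the deletion nor blood ammonia is given. Since the deletion spares the brain, its arrays could not show the genotype, and the row of the deleted gene was not analysed here. The 19572 other rows with an annotated gene were tested, and every difference is KO minus WT on the log2 scale of the deposited values.

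Glutamine synthetase joins ammonia to glutamate. In the liver it sits in the cells around the central veins, where it removes the ammonia that escapes the urea cycle. When that scavenging fails, ammonia reaches the brain, where astrocytes bind it with their own glutamine synthetase, and glutamine then serves neurons as a source of glutamate and GABA. The cerebellum is built from granule cells, Purkinje cells, inhibitory interneurons and Bergmann glia, a specialised astrocyte, and its output neurons lie in the deep nuclei. In rodents, high ammonia is known to disturb motor control and the nitric oxide and cyclic GMP pathway of this region.

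The arrays carried the genes of their labelled region. In WT, the granule cell transcription factor gene Zic1 averaged 17.11 ± 0.36 and Car8, a Purkinje cell protein that modulates calcium release, averaged 17.20 ± 0.49 (SD, n = 4). Eif2s3y, a gene of the Y chromosome shown after its values were seen, lay between 11.69 and 12.36 in the 8 arrays. Some arrays stood apart from their group. KO 3 had a residual standard deviation of 0.357, against 0.164 to 0.218 in the other 7. Markers of the brainstem and spinal cord (35 genes) averaged 9.05 on it, while the other 7 arrays lay between 7.39 and 7.88. The 21 granule cell markers averaged 12.57 in KO 3 and 13.51 to 13.94 elsewhere. For 25 oligodendrocyte and myelin markers these values were 13.19 and 11.29 to 11.77. WT 2 had the narrowest spread of values, with a standard deviation over genes of 2.464 against 2.581 to 2.637, and a highest value of 17.91 against 18.86 to 19.12. Results are therefore given with and without KO 3, and without WT 2 where that array moves them. In bulk tissue, a different share of cells of a type and a different amount of RNA per cell cannot be told apart.

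No gene passed the adjustment. Limma called 0 of 19572 genes (0%) at an adjusted p under 0.05, with a smallest adjusted p of 0.4355. The count at an unadjusted p under 0.05 was 1169 genes higher in KO (5.97%) and 691 lower (3.53%). Without KO 3, limma again called 0 genes (0%), the smallest adjusted p was 0.9993, and the unadjusted counts were 392 higher (2.00%) and 296 lower (1.51%). Of the 1169 genes on the higher side, 1042 (89.1%) had their highest value of the 8 arrays in KO 3, against 23.8% of all genes, a position that the choice of higher genes favours. The split between directions depended on the scaling: after quantile normalization across the arrays it was 874 higher and 858 lower. All 4 KO values exceeded all 4 WT values for 377 genes (1.93%), and lay below them for 308 (1.57%). With KO 3 set aside, 564 genes (2.88%) were separated on the higher side and 431 (2.20%) on the lower side. The median standard error of a difference was 0.135. P-values rest on the spread within each region and genotype over all 24 arrays, 1 per animal and region, not on the cerebellum arrays alone. With the 8 cerebellum arrays alone, limma's smallest adjusted p was 0.755. None of the genes below passed the adjusted threshold, so their values are descriptions of these arrays, and genes picked for a small p show separation in part because they were picked so.

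The largest difference of all genes belonged to Lcn2, which encodes lipocalin 2, a secreted protein that binds bacterial iron carriers and is made by reactive astrocytes. Lcn2 read 8.75, 6.67, 6.80 and 7.35 in WT 1 to 4 and 11.37, 12.53, 13.56 and 7.39 in KO 1 to 4 of the cerebellum. KO 1, KO 2 and KO 3 stood above every WT array, and KO 4 lay within the WT range. The difference was 3.82 (SE 1.19, n = 4 per group, 95% interval 1.38 to 6.26, limma adjusted p = 0.4355), or 14.1-fold on the scale of the deposited values. Without KO 3 it was 3.04 (SE 1.21, adjusted p = 0.999). Among the WT arrays WT 1 was the highest. In the other regions KO 1, KO 2 and KO 3 also exceeded every WT array. In the cortex Lcn2 read 8.67, 6.85, 7.28 and 7.14 in WT 1 to 4 and 11.81, 12.29, 12.25 and 7.44 in KO 1 to 4. In the hippocampus it read 9.33, 6.96, 7.20 and 7.64 in WT 1 to 4 and 12.22, 12.07, 13.40 and 7.13 in KO 1 to 4. In each region the arrays of KO 4 lay among the WT arrays and the array of WT 1 was the highest of its genotype. The SEs and the interval given above for Lcn2 count the arrays of an animal in different regions as independent. This repeated order of animals does not bear that out. The KO difference was 3.46 in cortex and 3.42 in hippocampus, and the cerebellar difference exceeded the mean of these by 0.37 (SE 1.44, limma adjusted p = 0.976). That contrast took the animal as a random block with a single correlation for all genes, 0.00646. Its SE therefore hardly uses the order of animals that Lcn2 repeated, and does not measure the spread between regions within an animal.

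**Figure D1:**
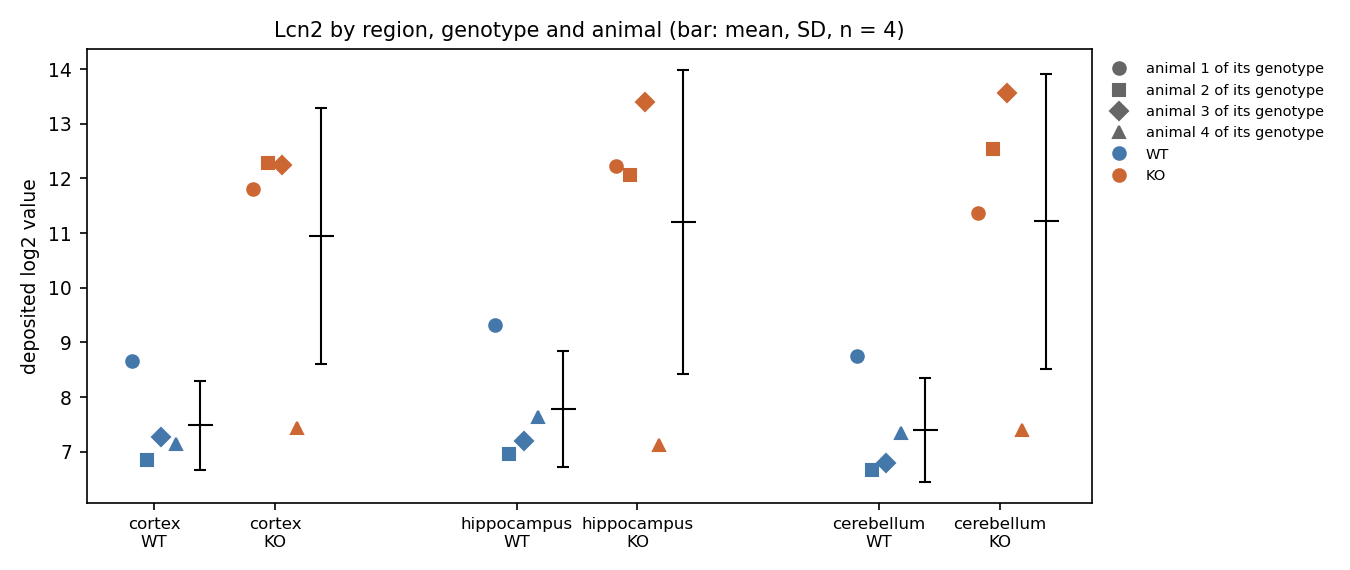
Deposited log2 value of Lcn2 in each of the 24 arrays, by region and genotype, with one marker shape per animal number within a genotype. Bars give the mean and SD of 4 arrays. KO 1, KO 2 and KO 3 lie above all WT arrays in the 3 regions, KO 4 lies among them, and WT 1 is the highest WT array in each.

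Lcn2 transcription is known to be driven by the factors NF-kB, C/EBP and STAT3, so its promoter is shown. The 250 bases before its start in RefSeq (build GRCm38.p6, chr2:32387740-32387989, minus strand, given 5′ to 3′ along the gene) are printed with the single match to the C/EBP pattern TTGCNNAA in capitals, read on both strands.
Lcn2: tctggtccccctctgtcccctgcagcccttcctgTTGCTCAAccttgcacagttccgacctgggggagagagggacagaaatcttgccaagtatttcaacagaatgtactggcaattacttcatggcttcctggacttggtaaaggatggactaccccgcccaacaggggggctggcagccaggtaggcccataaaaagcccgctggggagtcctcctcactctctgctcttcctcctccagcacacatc
The match begins at position -216 from the start. The pattern was present in 9.56% of 32851 mouse promoters of this length. The STAT pattern TTCNNNGAA, present in 7.02% of them, had no match in this window.

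Most of the other genes of astrocyte reactivity and acute phase showed no difference of that size. Of 31 measured members, 19 were higher in KO, with a median of 0.064 and 0.018 without KO 3. 4 members had an unadjusted p under 0.05 on the higher side and 1 on the lower side, beside 5.97% and 3.53% of all genes, and 1 and 1 without KO 3. Ccl2, a chemokine that draws monocytes, was the one on the lower side, with 8.34, 8.45, 8.22 and 8.27 in WT 1 to 4 and 7.98, 7.64, 7.81 and 8.17 in KO 1 to 4. All 4 KO values lay below all 4 WT values, and the difference was -0.42 (SE 0.14; -0.39 without KO 3). Gfap, the intermediate filament of astrocytes, read 11.22, 11.57, 11.76 and 11.34 in WT 1 to 4 and 11.70, 11.71, 13.45 and 11.65 in KO 1 to 4. KO 3 was far above the others, and the difference of 0.66 (SE 0.28) became 0.21 without it. The water channel gene Aqp4 differed by -0.013 (95% interval -0.40 to 0.38) and Tspo, a mitochondrial protein raised in activated glia, by 0.11 (-0.19 to 0.41).

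The 10 genes higher in KO with the smallest p included several genes of neurons. Scn3b, a beta subunit of voltage-gated sodium channels, read 6.73, 7.96, 9.29 and 7.55 in WT 1 to 4 and 9.62, 9.39, 11.51 and 8.40 in KO 1 to 4. Kcnc2, which encodes the potassium channel Kv3.2 of fast-firing neurons, read 6.53, 8.27, 9.21 and 7.64 in WT 1 to 4 and 9.48, 9.57, 11.32 and 8.58 in KO 1 to 4. Fam169a read 9.78, 9.85, 10.53 and 9.94 in WT 1 to 4 and 10.64, 10.70, 11.51 and 10.34 in KO 1 to 4. In the 3 genes KO 3 was highest, WT 1 lowest, WT 3 the highest of WT and KO 4 the lowest of KO, so that KO 4 fell below WT 3. The differences were 1.85 (SE 0.44; 1.26 without KO 3), 1.82 (SE 0.42; 1.30) and 0.77 (SE 0.18; 0.54), each with an adjusted p of 0.4355 in limma. Vstm2a, a secreted protein with an immunoglobulin domain, differed by 1.13 (0.73 without KO 3) and the neuronal kinase gene Pak3 by 1.15 (0.73). Oprl1, the receptor of the peptide nociceptin, differed by 1.13 (0.74) and the adhesion gene Cdh9 by 1.11 (0.78). Groups did not overlap for the remaining 3, beside 1.93% of all genes on the higher side, and the choice by p favours this. Lix1 read 9.27, 9.20, 9.70 and 9.45 in WT 1 to 4 and 9.97, 10.10, 10.75 and 9.90 in KO 1 to 4, and its difference was 0.78 (SE 0.18; 0.59 without KO 3). Serpinb6b, a relative of serine protease inhibitors, differed by 0.62 (0.52, and 0.36 without WT 2 as well) and Ubxn2b by 0.47 (0.33). Serpinb6b is dim, at 6.06 to 7.46 in the cerebellum arrays, with WT 2 the lowest.

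Across these 10 genes KO 3 was the highest of the 8 arrays in 10, WT 1 the lowest in 6, WT 3 the highest WT array in 8 and KO 4 the lowest KO array in 7. Over all genes these positions held in 23.8%, 9.66%, 23.1% and 19.3%. All 4 positions held at once in 5 of the 10, against 12.9% of the 1169 genes higher at an unadjusted p under 0.05 and 1.47% of all genes. The choice by p favours KO 3 highest and WT 1 lowest. Without KO 3, the 10 genes of smallest p on the higher side were Neto1, Vstm2a, Nrsn1, Fam169a, Pak3, Kcnc2, Lix1, A830018L16Rik, Cdh9 and Scn3b. Neto1, an auxiliary subunit of kainate receptors, read 7.62, 8.15, 8.54 and 8.01 in WT 1 to 4 and 8.98, 8.85, 11.49 and 8.54 in KO 1 to 4. Its KO values all exceeded the WT values, and the difference was 0.71 (SE 0.16) without KO 3 and 1.38 with it. Nrsn1, a membrane protein of neuronal vesicles, differed by 0.59 without KO 3 and 1.04 with it, and A830018L16Rik by 0.72 and 1.20. The order of the arrays remained. WT 3 was the highest WT array in 10 of these genes and KO 4 the lowest KO array in 8, beside 23.1% and 19.3% of all genes.

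Some markers of the deep cerebellar nuclei and of the brainstem, which lie beside each other in the tissue, had this order of arrays. All 4 positions held in 4 of 11 markers of the nuclei and in 4 of 35 of the brainstem and spinal cord. They also held in 5 of 22 markers of thalamus and midbrain, 3 of 19 of striatum, 2 of 21 of hippocampus and 1 of 24 of neocortex. Over all genes the 4 positions held in 1.47%. The lists share members, and a shared gene counts in each. Slc17a6 is on those of brainstem, nuclei and thalamus, and Tac1 on those of brainstem, thalamus and striatum. Slc17a6, Meis2, Glra3 and Tac1 are shown here after their values were seen. Slc17a6 encodes the vesicular glutamate transporter VGLUT2 of nuclear and brainstem neurons and read 8.41, 10.54, 12.08 and 9.999 in WT 1 to 4 and 11.78, 12.05, 13.77 and 10.67 in KO 1 to 4. WT 3 and KO 3 were the highest arrays of their genotypes, and WT 1 was the lowest of all. Its difference was 1.81 (SE 0.68; 1.25 without KO 3). The homeobox genes Meis2 and Lhx9 differed by 1.86 (1.17) and 1.12 (0.83). Glra3, a glycine receptor subunit, read 5.71, 6.51, 8.01 and 5.97 in WT 1 to 4 and 8.59, 8.37, 10.12 and 7.27 in KO 1 to 4. Tac1, the precursor of substance P, differed by 2.04 (1.53). In Glra3 the 3 KO arrays other than KO 4 exceeded all WT arrays. Of 11 measured markers of the nuclei, 7 were higher in KO and 7 had an unadjusted p under 0.05, beside 5.97% of all genes on the higher side, with a median of 0.69. Without KO 3, 1 had such a p, beside 2.00% of all genes, and the median was 0.18. Their mean ran from 10.15 to 11.14 in WT and from 10.70 to 12.21 in KO. KO 3 was highest in 8 of the 11 and WT 1 lowest in 6, beside 23.8% and 9.66% of all genes. Of 35 brainstem and spinal cord markers, 27 were higher, 11 of them at an unadjusted p under 0.05, beside 5.97% of all genes. Without KO 3, 2 had such a p on the higher side, beside 2.00% of all genes. The 35 markers had a median of 0.25, and 0.042 without KO 3. Their mean ran from 7.39 to 7.86 in WT and from 7.71 to 9.05 in KO, where KO 1 was the lowest KO array. The mean of 19 striatum markers was 9.18, 9.39, 9.61 and 9.27 in WT 1 to 4. In KO 1 to 4 it was 9.56, 9.68, 9.90 and 9.52, and the 8 values hold all 4 positions. The means for the nuclei, for thalamus and midbrain and for hippocampus hold all 4 positions too. Those for brainstem and spinal cord and for neocortex do not. With the brainstem mean as a covariate among the 8 arrays, the difference of Scn3b was 0.78, that of Kcnc2 0.81, that of Fam169a 0.37 and that of Lcn2 2.91. The part of nuclear or brainstem tissue in these differences was not tested further.

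**Figure D2:**
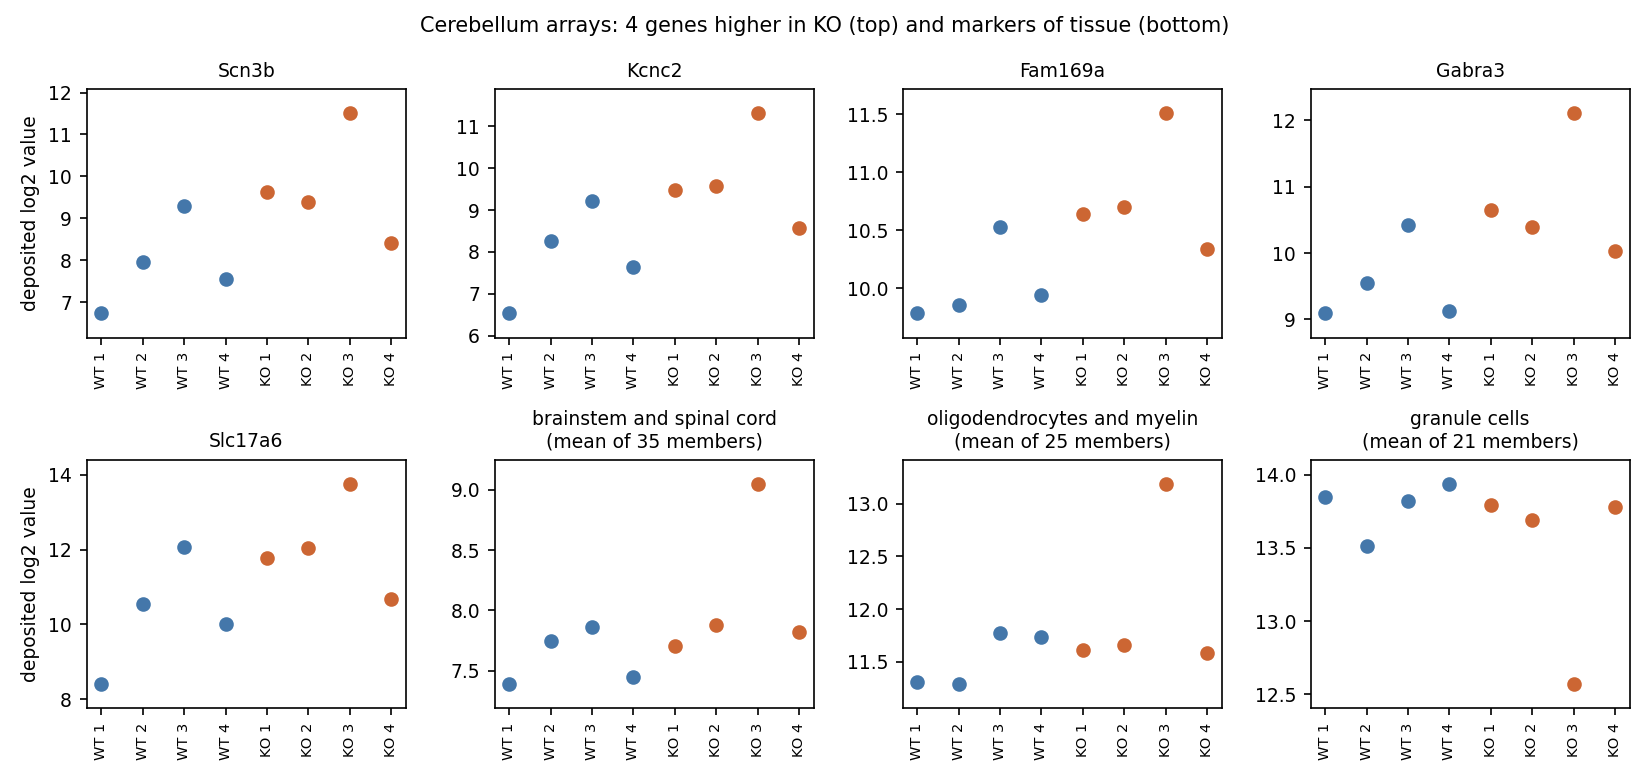
Deposited log2 value in each of the 8 cerebellum arrays for Scn3b, Kcnc2, Fam169a, Gabra3 and Slc17a6, and the mean over members of 3 marker lists (WT blue, KO orange; vertical axes differ and do not start at 0). In the 5 genes WT 1 is low, WT 3 is the highest WT array and KO 3 the highest of all. KO 3 is apart in the marker lists, at 9.05 for brainstem and spinal cord and 12.57 for granule cells.

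Among the 10 genes lower in KO with the smallest p, KO 3 was the lowest of the 8 arrays in 8, against 27.9% of all genes, a position that the choice of lower genes favours. Rufy4, which encodes a protein of vesicle trafficking and autophagy, read 8.70, 8.85, 8.84 and 8.43 in WT 1 to 4 and 8.09, 8.27, 8.21 and 8.19 in KO 1 to 4. All 4 KO values lay below all 4 WT values, and the difference was -0.52 (SE 0.12, adjusted p = 0.4355), -0.53 without KO 3 and -0.57 with the brainstem covariate. Erich6b read 6.93, 7.10, 6.75 and 6.66 in WT 1 to 4 and 6.43, 6.47, 6.23 and 6.29 in KO 1 to 4, again without overlap, and differed by -0.50 (-0.46 without KO 3). Its values are near the lower end of the scale, where signal over background is small. Tmem266, a membrane protein with a voltage sensor domain, read 9.81, 9.55, 9.74 and 9.94 in WT 1 to 4 and 9.30, 9.49, 8.37 and 9.12 in KO 1 to 4. The groups did not overlap, KO 3 was the lowest array, and the difference of -0.69 (SE 0.18) became -0.46 without it. The bitter taste receptor gene Tas2r143 read 8.14, 8.04, 8.02 and 8.17 in WT 1 to 4 and 7.47, 7.69, 6.96 and 7.67 in KO 1 to 4 and differed by -0.64 (-0.48), also without overlap. Cldn15, a tight junction claudin, differed by -0.42 (-0.34) and BC049762 by -0.48 (-0.45). The odorant receptor genes Olfr1006 and Olfr1431, both dim, differed by -0.58 and -0.50. The groups overlapped for the other two. Abhd16a, a lipid hydrolase that acts on phosphatidylserine, differed by -0.44 (-0.36). Col18a1, the basement membrane collagen that gives rise to endostatin, read 10.13, 10.46, 10.22 and 10.80 in WT 1 to 4 and 9.39, 9.97, 8.99 and 10.27 in KO 1 to 4 and differed by -0.75 (SE 0.20; -0.52). In all, 8 of the 10 had no overlap, beside 1.57% of all genes, and the choice by p favours this.

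**Figure D3:**
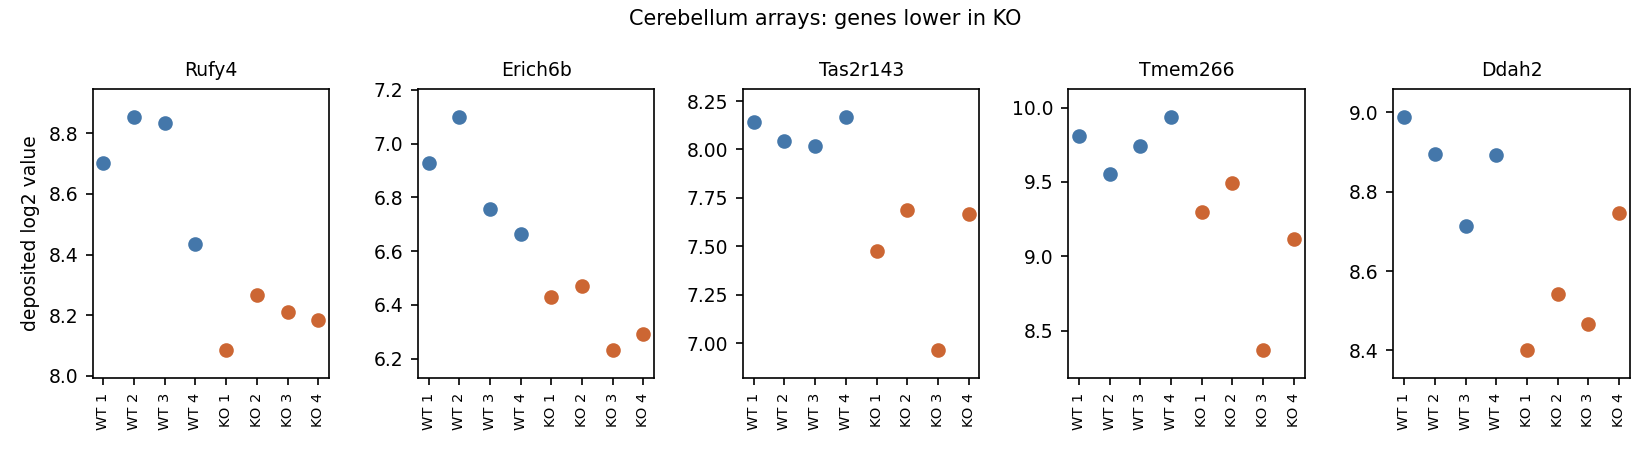
Deposited log2 value of Rufy4, Erich6b, Tas2r143, Tmem266 and Ddah2 in each of the 8 cerebellum arrays (WT blue, KO orange; vertical axes differ and do not start at 0). In the first 4 genes all KO arrays lie below all WT arrays, and in Ddah2 KO 4 lies above WT 3.

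Without KO 3, the 10 genes of smallest p on the lower side were Zfp984, Rufy4, Atp10d, BC049762, Pkdrej, Erich6b, A930003A15Rik, Olfr1026, Keg1 and Kl. In all 10 the remaining KO values lay below all WT values, beside 2.20% of all genes, and in 4 KO 3 did so too. Zfp984, a zinc finger gene, read 6.75, 6.97, 6.82 and 7.16 in WT 1 to 4 and 6.30, 6.40, 7.07 and 6.50 in KO 1 to 4, and its difference was -0.52 without KO 3 and -0.36 with it. Atp10d, which encodes a lipid-moving ATPase, differed by -0.46 and -0.37. Pkdrej differed by -0.54 and -0.32, A930003A15Rik by -0.39 and -0.28, Olfr1026 by -0.51 and -0.42, and Keg1 by -0.37 and -0.33.

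Genes of the choroid plexus, the tissue in the brain's ventricles that makes cerebrospinal fluid, differed by large amounts between arrays of one genotype. Kl, the hormone coreceptor klotho, read 9.63, 11.87, 7.56 and 8.90 in WT 1 to 4 and 6.85, 7.27, 11.21 and 7.09 in KO 1 to 4. Kl falls under the rule for named genes, and Ttr and Kcnj13 under its part on markers, but the 3 are described here after their values were seen. Ttr, which carries thyroid hormone and retinol and is made there in great amounts, read 16.51, 17.09, 9.65 and 15.89 in WT 1 to 4 and 10.17, 9.66, 17.56 and 9.81 in KO 1 to 4. For Ttr, WT 1, WT 2, WT 4 and KO 3 were high, and WT 3, KO 1, KO 2 and KO 4 were low. The difference was -2.98 (95% interval -6.46 to 0.50) and -4.90 (SE 1.51) without KO 3, and for Kl -1.38 and -2.42. Kcnj13, a potassium channel of the plexus, differed by -1.11 and -2.05. Of 19 markers of choroid plexus and ependyma, 16 were lower in KO, with a median of -0.21 (-0.30 without KO 3, -0.16 without WT 2 as well). Their mean ran from 7.97 to 9.56 in WT and from 7.92 to 9.22 in KO, and the groups overlapped. How much plexus each biopsy held was not tested.

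Markers of the main cerebellar neurons were lower in KO with KO 3, and their medians lay closer to 0 without it. Of 21 granule cell markers 20 were lower, 3 at an unadjusted p under 0.05 (beside 3.53% of all genes), with a median of -0.33. Without KO 3, 11 were lower, 0 at such a p, and the median was -6.4e-05, and -0.10 without WT 2 as well. Fat2, an atypical cadherin of granule cells, read 13.75, 13.51, 13.70 and 13.91 in WT 1 to 4 and 13.64, 13.35, 11.76 and 13.50 in KO 1 to 4, and Cbln3, a cerebellin released by these cells, read 15.84, 15.47, 15.81 and 16.21 in WT 1 to 4 and 15.63, 15.76, 14.14 and 15.65 in KO 1 to 4. KO 3 was the lowest array for both, and their differences went from -0.65 and -0.54 to -0.22 and -0.15 without it. Of 21 Purkinje cell markers 17 were lower, with a median of -0.33, -0.008 without KO 3 and -0.039 without WT 2 as well. Gng13, a G protein gamma subunit, read 11.31, 11.25, 11.26 and 11.32 in WT 1 to 4 and 10.78, 10.61, 10.07 and 11.28 in KO 1 to 4. KO 1, KO 2 and KO 3 were below all WT arrays and KO 4 was within them; the difference was -0.60 (-0.40 without KO 3).

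Glial markers were higher in KO, with KO 3 again the highest. All 25 oligodendrocyte and myelin markers were higher (median 0.50), and 19 of 25 without KO 3 (median 0.12; 0.015 without WT 2 as well). Ugt8a, an enzyme of myelin lipid synthesis, read 12.32, 12.15, 12.82 and 12.79 in WT 1 to 4 and 12.71, 12.82, 14.63 and 12.82 in KO 1 to 4. Sox10, the transcription factor of the lineage, differed by 0.57 (0.21 without KO 3) and Hapln2, a matrix protein of nodes of Ranvier, by 0.55 (0.17). Of 22 markers of microglia and macrophages, 20 were higher, 8 at an unadjusted p under 0.05, beside 5.97% of all genes (median 0.27). Without KO 3, 3 had such a p on the higher and 1 on the lower side, beside 2.00% and 1.51% of all genes (median 0.092). C1qb, a chain of complement C1q, read 8.60, 8.16, 8.89 and 8.82 in WT 1 to 4 and 9.09, 9.26, 9.99 and 8.77 in KO 1 to 4, and differed by 0.66 (0.42). Itgam, the integrin CD11b, differed by 0.44 (0.26) and the lysosomal gene Laptm5 by 0.54 (0.26). Of 26 markers of Bergmann glia and astrocytes, 20 were higher (median 0.15, 0.12 without KO 3), and WT 2 was the lowest array at 12.95 against 13.14 to 13.26. Sparcl1, a synapse-promoting protein of astrocytes, differed by 0.35 (0.28; 0.12 without WT 2 as well). Hopx, a homeodomain gene of Bergmann glia, went the other way, with 11.76, 11.82, 12.08 and 11.74 in WT 1 to 4 and 11.48, 11.55, 11.07 and 11.73 in KO 1 to 4. Its groups did not overlap, and the difference was -0.39 (SE 0.14; -0.26).

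Enzymes and transporters of glutamine, glutamate and ammonia were examined because the deleted enzyme acts on them. Of 27 enzymes 17 were higher in KO, 4 at an unadjusted p under 0.05 and 0 on the lower side (median 0.092, 0.078 without KO 3), beside 5.97% and 3.53% of all genes. Without KO 3 the count was 0 on the higher side. Bcat1, which moves amino groups from branched-chain amino acids to make glutamate, read 12.42, 12.46, 12.95 and 12.49 in WT 1 to 4 and 12.80, 12.99, 14.32 and 12.86 in KO 1 to 4. KO 3 was highest and WT 3 lay above KO 1 and KO 4; the difference was 0.66 (SE 0.23; 0.30 without KO 3). Abat, which breaks down GABA, differed by 0.44 (0.31) and Got1, an aspartate aminotransferase, by 0.31 (0.16). Among 24 transporters 15 were higher (median 0.064, 0.038 without KO 3, and -0.021 after quantile normalization). The neuronal glutamate carrier gene Slc1a1 read 9.76, 9.65, 10.22 and 10.08 in WT 1 to 4 and 10.28, 10.16, 11.12 and 10.37 in KO 1 to 4 and differed by 0.56 (SE 0.16; 0.35). KO 3 stood highest, and WT 3 lay above KO 2. Slc6a11, the GABA transporter GAT3, differed by 1.38 (0.83). The astrocytic glutamate carriers Slc1a2 and Slc1a3 differed by 0.36 (0.18) and -0.29 (-0.0026; 95% interval -0.35 to 0.35). Of 23 genes of ammonia channels and the urea cycle 15 were higher (median 0.056, 0.017). Car4, a membrane carbonic anhydrase, differed by -0.59 (-0.21), and Gda, a guanine deaminase that frees ammonia, by 0.50 (0.40). Otc, the urea cycle enzyme of the liver, read 4.95 to 5.81 in the 8 arrays, near the lower end of the scale.

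In the nitric oxide and cyclic GMP pathway, 11 of 24 members were higher in KO, with 4 and 2 at an unadjusted p under 0.05 on the higher and lower side, beside 5.97% and 3.53% of all genes, and a median of -0.0091. Without KO 3 the counts were 1 and 1 (median 0.030). Ddah2 breaks down methylated arginines that inhibit nitric oxide synthase, and it read 8.99, 8.89, 8.71 and 8.89 in WT 1 to 4 and 8.40, 8.54, 8.47 and 8.75 in KO 1 to 4. KO 4 lay above WT 3, and the difference was -0.33 (SE 0.10; -0.31 without KO 3). Gucy1b1, the beta subunit of the guanylate cyclase that nitric oxide activates, read 12.73, 12.52, 12.84 and 12.67 in WT 1 to 4 and 12.88, 12.92, 13.02 and 12.90 in KO 1 to 4. All KO values exceeded the WT values, and the difference was 0.24 (SE 0.098; 0.21). Pde1b, a phosphodiesterase of cyclic nucleotides, differed by 1.05 with KO 3 and 0.55 without it.

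Among receptor genes, Gabra3, a subunit of GABA-A receptors, read 9.09, 9.55, 10.42 and 9.12 in WT 1 to 4 and 10.65, 10.39, 12.11 and 10.03 in KO 1 to 4, and differed by 1.25 (SE 0.32; 0.81 without KO 3). Gabra5 and Gabrg3 differed by 1.90 (1.09) and 1.02 (0.68). All of them had WT 1 lowest and KO 3 highest. Gabra5 is also on the list of hippocampus markers. Over the 16 GABA-A subunits, 10 were higher (median 0.17), and 15 without KO 3 (median 0.14), with 3 at an unadjusted p under 0.05 with and without KO 3, beside 5.97% and 2.00% of all genes. Of 16 ionotropic glutamate receptors 9 were higher (median 0.043, 0.082 without KO 3, and -0.049 after quantile normalization). Grin2b, an NMDA receptor subunit, differed by 0.54 (0.40), and Grm5, a metabotropic receptor, by 1.01 (0.61).

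Lists of chaperone genes had positive medians, and for heat shock proteins KO 3 and KO 4 lay above the WT arrays while KO 1 and KO 2 lay within their range. Of 38 heat shock proteins and cochaperones, 33 were higher, 5 at an unadjusted p under 0.05, beside 5.97% of all genes, and 0 without KO 3 (median 0.20, 0.14 without KO 3, 0.084 without WT 2 as well). Their mean was 11.10, 11.15, 11.52 and 11.46 in KO 1 to 4 and 11.04 to 11.25 in WT. Hspd1, the mitochondrial chaperonin, read 13.72, 13.39, 13.48 and 13.52 in WT 1 to 4 and 13.52, 13.64, 14.12 and 14.10 in KO 1 to 4. KO 3 and KO 4 exceeded all WT arrays, and KO 1 and KO 2 lay below WT 1; the difference was 0.31 (SE 0.13; 0.22). Hsp90aa1 differed by 0.39 (0.27) and the cochaperone gene Bag1 by 0.39 (0.21). All 8 subunits of the cytosolic chaperonin CCT, which folds actin and tubulin, were higher (median 0.23, 0.15 without KO 3, 0.12 without WT 2 as well). Cct2 read 14.03, 13.93, 14.09 and 14.00 in WT 1 to 4 and 14.09, 14.14, 14.60 and 14.27 in KO 1 to 4. The lowest KO value equalled the highest WT value to 2 decimals, and the difference was 0.27 (SE 0.097; 0.16). Cct4 and Cct8 differed by 0.33 (0.24) and 0.31 (0.23). Of 23 chaperones of the endoplasmic reticulum 18 were higher (median 0.16, 0.18 without KO 3, and 0.044 after quantile normalization). Their mean was highest in KO 4 at 12.50 and next in WT 1 at 12.38. KO 1 at 12.05, KO 2 at 12.17 and KO 3 at 12.26 lay within the WT range. Pdia3, a disulfide isomerase, differed by 0.35 (0.29), and the lectin chaperone gene Canx by 0.34 (0.27).

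Heat shock genes are classically switched on by HSF1 through repeats of the unit NGAAN, so promoters of the chaperones were read for GAANNTTC and TTCNNGAA on both strands, patterns that can overlap each other. Either was present in 12.8% of the 32851 promoters. By gene, 11 of 33 heat shock genes, 2 of 7 CCT genes and 0 of 21 endoplasmic reticulum chaperones had one, against 14.5% of 27025 genes. The promoters of Hspd1 and Cct2, the members described above, are shown with their matches in capitals (RefSeq, GRCm38.p6, chr1:55087933-55088182 and chr10:117063376-117063625, both minus strand, 250 bases before the start). Where a gene had several promoters, one with a match was preferred for printing.
Hspd1: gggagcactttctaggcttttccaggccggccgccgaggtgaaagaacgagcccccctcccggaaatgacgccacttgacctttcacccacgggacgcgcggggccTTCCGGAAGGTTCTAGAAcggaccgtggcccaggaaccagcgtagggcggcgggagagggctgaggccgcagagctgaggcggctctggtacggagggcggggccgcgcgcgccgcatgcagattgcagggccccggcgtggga
Cct2: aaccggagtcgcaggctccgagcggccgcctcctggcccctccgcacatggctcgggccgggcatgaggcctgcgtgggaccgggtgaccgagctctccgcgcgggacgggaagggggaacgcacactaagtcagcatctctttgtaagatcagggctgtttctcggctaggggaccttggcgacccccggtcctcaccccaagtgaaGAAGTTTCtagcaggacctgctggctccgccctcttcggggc
In Hspd1, 3 matches overlap, at positions -144, -139 and -134 from the start. Cct2 has 1 match, at position -42. A match describes the letters only.

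**Figure D4:**
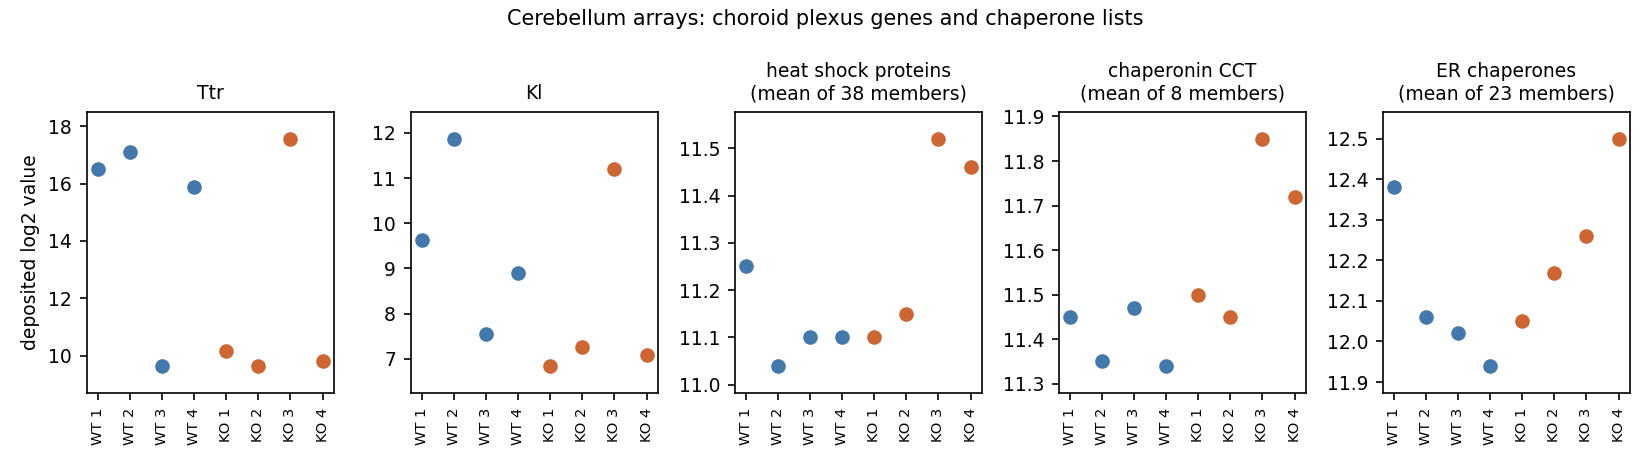
Deposited log2 value of Ttr and Kl and the mean over members of 3 chaperone lists in each of the 8 cerebellum arrays (WT blue, KO orange; vertical axes differ and do not start at 0). Ttr is high in WT 1, WT 2, WT 4 and KO 3 and low in the other 4 arrays. KO 3 and KO 4 are highest for heat shock proteins and CCT, and KO 4 and WT 1 for chaperones of the endoplasmic reticulum (ER).

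Genes of cellular energy and protein synthesis were higher in KO as well. Of 37 subunits of respiratory complex I 34 were higher, 12 at an unadjusted p under 0.05, beside 5.97% of all genes, and 3 without KO 3, beside 2.00% (median 0.23). Of 18 subunits of ATP synthase 18 were higher (median 0.25), and of 60 proteins of the cytosolic ribosome 54 (median 0.24). Without KO 3 the medians were 0.12, 0.13 and 0.095, and without WT 2 as well 0.054, 0.081 and 0.057. Ndufb2, a small subunit of complex I, read 11.98, 11.75, 11.75 and 11.88 in WT 1 to 4 and 12.04, 12.22, 12.06 and 12.24 in KO 1 to 4. Its KO values all exceeded the WT values, and the difference was 0.30 (SE 0.10; 0.33 without KO 3). Ndufa10 and Ndufa5 differed by 0.55 (0.35) and 0.33 (0.23). Of 23 neurofilament and axonal cytoskeleton genes 20 were higher, 13 at an unadjusted p under 0.05, beside 5.97% of all genes (median 0.32). Without KO 3, 23 were higher (median 0.17), 2 of them at an unadjusted p under 0.05, beside 2.00% of all genes. Uchl1, a ubiquitin hydrolase of neurons, read 11.87, 11.98, 12.61 and 12.33 in WT 1 to 4 and 12.47, 12.90, 14.96 and 12.64 in KO 1 to 4. Nefl, the light neurofilament, differed by 0.80 (0.32) and the microtubule protein gene Map1b by 0.40 (0.24).

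The brightness of a gene went with its difference. When the 19572 genes were ranked by mean value into 4 groups of 4893, 66.3% of the brightest group were higher in KO, with a median of 0.079, and 35.4% of the dimmest group, with a median of -0.048. WT 2 averaged 12.32 over the brightest group, below the 12.51 to 12.62 of the other 7 arrays. Without KO 3 and WT 2 the medians of the dimmest and brightest groups were -0.0042 and 0.011, and after quantile normalization -0.0061 and 0.011. Receptor genes of the nose, which are dim in brain, lay on the lower side: 757 of 1080 odorant receptor genes were lower (median -0.067; -0.0062 without KO 3 and WT 2), as were 195 of 319 vomeronasal receptor genes (median -0.032; 0.0051 after quantile normalization).

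Of the other stress pathways, those of oxidation had medians near those of the chaperones. Of 23 antioxidant enzymes 20 were higher, 4 at an unadjusted p under 0.05, beside 5.97% of all genes (median 0.20). Without KO 3, 0 had such a p on the higher side, beside 2.00% of all genes (median 0.063). Of 31 genes of the Nrf2 antioxidant response 24 were higher, 9 at an unadjusted p under 0.05, beside 5.97% of all genes (median 0.15), and 1 without KO 3, beside 2.00% (median 0.058). Srxn1, which repairs oxidised peroxiredoxins, read 10.97, 11.31, 11.20 and 11.27 in WT 1 to 4 and 11.36, 11.48, 11.91 and 11.63 in KO 1 to 4. Its KO values all exceeded the WT values, and the difference was 0.41 (SE 0.12; 0.30). Sqstm1, the autophagy receptor p62, differed by 0.39 (0.21) and Cbr1, a carbonyl reductase, by 0.27 (0.20). Heme oxygenase, Hmox1, differed by -0.069 (95% interval -0.45 to 0.31). In the integrated stress response 13 of 28 were higher (median -0.013). Mthfd2, a mitochondrial folate enzyme, differed by 0.41 (0.29), and Eif4ebp1, a repressor of translation, by -0.27 (-0.33). Of 22 metallothionein and zinc transporter genes 14 were higher (median 0.075). Mt3, the metallothionein of brain, read 13.95, 13.67, 13.89 and 13.81 in WT 1 to 4 and 13.92, 14.21, 14.68 and 14.15 in KO 1 to 4, and differed by 0.41 (SE 0.11; 0.26). Mt1 and Mt2 differed by 0.32 and 0.34, and by 0.067 and 0.15 without KO 3 and WT 2. Of 26 p53 and senescence genes 11 were higher (median -0.030). Eda2r, a receptor of the ectodysplasin family and a p53 target, read 6.21, 6.26, 6.15 and 6.44 in WT 1 to 4 and 6.62, 6.58, 6.50 and 6.57 in KO 1 to 4. Its KO values all exceeded the WT values at a dim level, and the difference was 0.30 (SE 0.11; 0.33). Cdkn1a, the cell cycle inhibitor p21, differed by 0.30 (95% interval -0.34 to 0.93) and Gadd45a by -0.14 (-0.43 to 0.14).

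Genes that follow oxygen, steroid hormone, neuronal activity and time of day were examined too. Of 23 hypoxia targets 16 were higher (median 0.13, 0.10 without KO 3). Higd1a, a mitochondrial protein of hypoxia, read 10.30, 10.29, 10.35 and 10.73 in WT 1 to 4 and 10.71, 10.80, 11.20 and 10.78 in KO 1 to 4. WT 4 was apart from the other WT arrays and just above KO 1, and the difference was 0.46 (SE 0.12; 0.35). Car9, a carbonic anhydrase induced by low oxygen, went the other way without overlap, with a difference of -0.54 (-0.37). Of 24 glucocorticoid targets 14 were higher (median 0.18, 0.025). Fkbp5, a chaperone that tunes the glucocorticoid receptor, read 10.06, 10.85, 10.31 and 10.89 in WT 1 to 4 and 10.98, 10.98, 12.38 and 10.70 in KO 1 to 4, and differed by 0.73 (0.36). Tsc22d4 differed by 0.33 (0.23), with no overlap. Of 28 immediate early genes 19 were lower (median -0.072, -0.076). Fos and Arc, both switched on by neuronal firing, differed by 0.040 (95% interval -0.29 to 0.37) and -0.19 (-0.69 to 0.30). Of 21 clock genes 10 were higher (median -0.041). The clock genes Per1 and Dbp differed by -0.10 (-0.39 to 0.19) and 0.073 (-0.21 to 0.36).

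**Figure D5:**
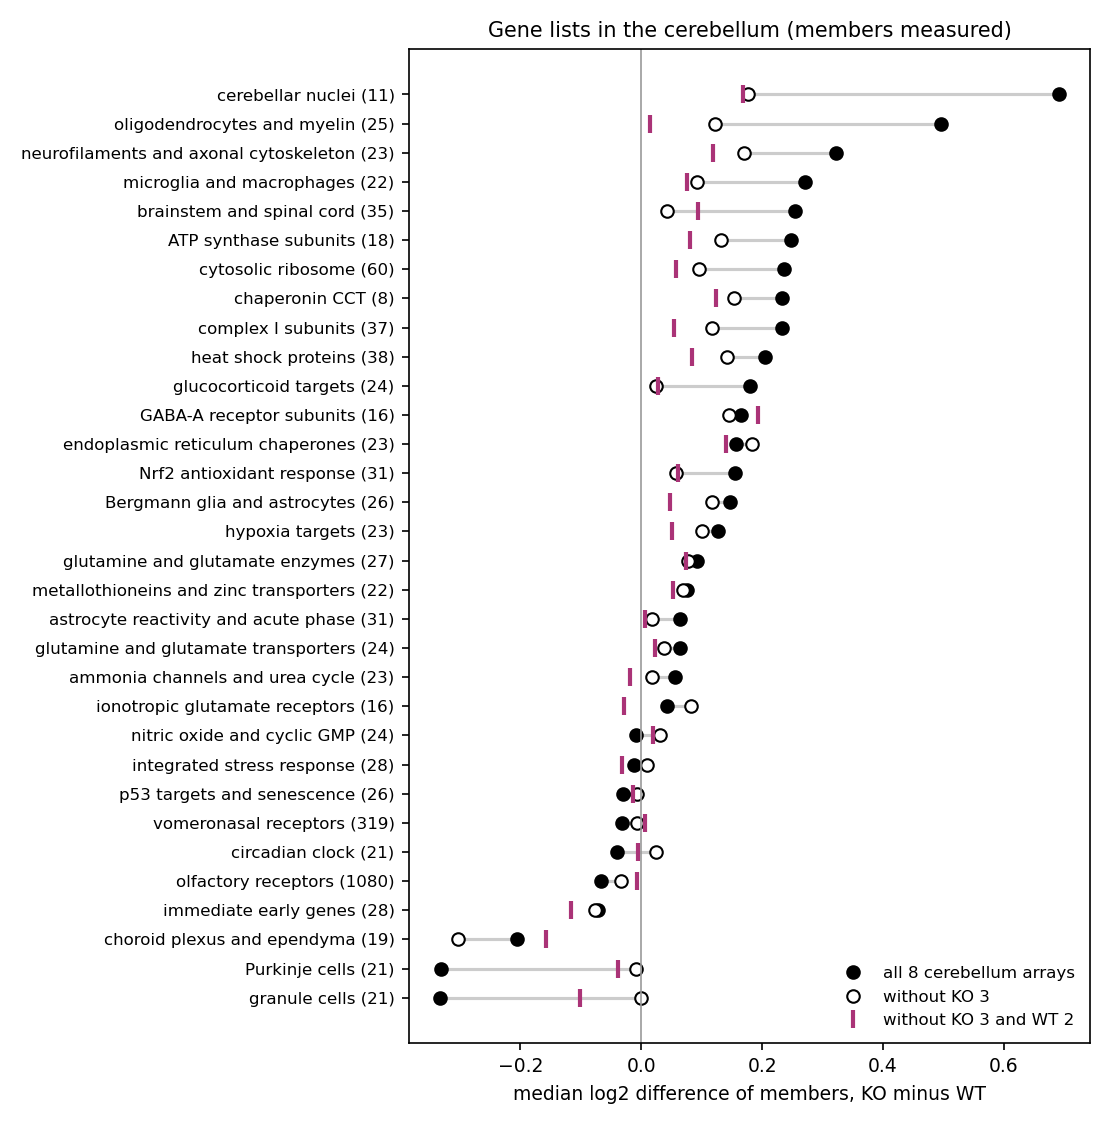
Median log2 difference (KO minus WT) over the members of 32 gene lists, with the number of measured members, for all 8 cerebellum arrays, without KO 3, and without KO 3 and WT 2. Lists of the cerebellar nuclei (0.69 to 0.18), myelin (0.50 to 0.12), Purkinje cells (-0.33 to -0.008) and granule cells move most among these lists when KO 3 is left out.

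Whether a KO difference was particular to the cerebellum was tested by subtracting the mean KO difference of cortex and hippocampus, with the animal as a random block. Limma called 0 of 19572 genes (0%), with a smallest adjusted p of 0.726. At an unadjusted p under 0.05, 796 genes had a higher difference in the cerebellum (4.07%) and 488 a lower one (2.49%). Without the cerebellum array of KO 3 limma called 0 (0%), with 367 (1.88%) and 257 (1.31%) at an unadjusted p under 0.05. The cerebellum arrays enter both this contrast and the one above, so their values are given side by side. Sorcs1, a sorting receptor of neurons, had the smallest p. It read 8.81, 8.95, 9.14 and 8.93 in WT 1 to 4 and 9.67, 9.44, 10.13 and 9.36 in KO 1 to 4, with all KO values above the WT values. Its KO difference was 0.69 in cerebellum, -0.34 in cortex and -0.20 in hippocampus, and the contrast was 0.96 (SE 0.24, and 0.80 without KO 3). Sorcs1 in cortex was lowest in KO 1 (9.865) and KO 4 (10.19), against 10.56 to 10.90 in the other cortex arrays. Meis2 was highest in the same cortex arrays, at 16.43 and 16.33 against 13.24 to 14.27. The tissue held by these cortex arrays, which enter every contrast given here, was not tested. The adhesion gene Cadm1 had a contrast of 0.70 (0.57), Dbn1, which encodes the dendritic spine protein drebrin, 0.66 (0.58), Fam98c 0.55 (0.51) and Oprl1 1.30 (0.91). On the lower side Ddah2 had a contrast of -0.47 (SE 0.12; -0.45), with KO differences of -0.33 in cerebellum, 0.26 in cortex and 0.020 in hippocampus. Col18a1 followed with -0.92 (-0.70), Tas2r143 with -0.70 (-0.54), Atxn7l2 with -0.49 (-0.45) and Vmn2r33 with -0.54 (-0.48). All of these had an adjusted p of 0.726. Rufy4, the gene of smallest p on the lower side in the cerebellum, had a contrast of -0.42, with -0.20 in cortex and 0.005 in hippocampus. Scn3b and Kcnc2 had contrasts of 1.69 (1.10 without KO 3) and 1.92 (1.39).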

How the data were processed

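Total RNA of mouse brain biopsies was measured on 24 arrays, 1 per animal and region. The log2 values, 1 per transcript cluster and array, were made by the authors with RMA, per the submitters' processing notes. RMA corrects background, normalizes between arrays and shrinks differences among dim probes. The sources used here give neither its version nor a genome build, and the values themselves show the log2 scale. The labels name both biotin and Cy3 labelling, and which was used is not settled here. Nothing was normalized further. Without scanner files, a probe's detection could not be judged. Of 22206 rows, 19572 carried 1 gene (19505 symbols) and were tested. For a symbol with several rows, lists used the row of highest mean.

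Limma 3.58.1 (R 4.3.3; lmFit and eBayes, 2-sided) was fitted on all 24 arrays with 1 mean per region and genotype, which left 18 residual degrees of freedom. The fit was repeated without KO 3 of the cerebellum. The contrast of regions used the animal as random block (duplicateCorrelation, statmod 1.5.0), with a correlation of 0.00646. P-values were adjusted by Benjamini-Hochberg over all tested rows, with a threshold of 0.05. Lists were described by counts and medians, without a test of their own. The number of arrays limits the precision. Errors are standard errors for differences and SD for means.

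The comparison, the gene lists and the rule for named genes were chosen with earlier results of these data known. The rule took the 10 genes of smallest p each way with and without KO 3, the 5 each way in the contrast of regions, up to 3 members of smallest p of each list, the 3 brightest markers of each tissue list, and 14 genes of glia, stress, neuronal activity and the clock, among them Gfap, Mt1, Fos and Dbp. Receptor genes of the nose and unnamed transcripts were left out beyond the first 3. Zic1, Car8, Igf2 and Tcf7l2 follow the marker part of the rule. Slc17a6, Meis2, Glra3, Tac1, Ttr, Kl and Kcnj13 also fall under the rule but were chosen for the text after their values were seen, and Eif2s3y was added in the same way.

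The fit was tested on simulated data of matching spread. Alternatives were array weights, an intensity trend with robust moderation, quantile normalization, bright rows alone, the cerebellum arrays alone, the animal number as a block, a brainstem covariate and each array left out.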

Additional observations from a re-analysis of the deposited data

Results flagged for a closer look

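In 316 groups of 4 cerebellum values examined (113 genes and 45 list means in each genotype), the highest or lowest array lay outside the rest of its group by Dixon's 95% criterion in the cases given here. Chance would give about 1 group in 20. KO 3 was the highest array in 27 of these cases and the lowest in 5.

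For list means, KO 3 stood at 12.57 for granule cells and 11.69 for Purkinje cells, both below the other KO arrays, and at 8.137 for collagens, also below. It stood above them at 9.05 for brainstem and spinal cord, 13.19 for oligodendrocytes and myelin, 9.297 for microglia and macrophages, 9.225 for choroid plexus and ependyma and 11.16 for endothelial cells and pericytes. The same held at 11.1 for the Nrf2 response, 13.82 for neurofilaments and axonal cytoskeleton, 12.73 for the cytosolic ribosome and 11.65 for cholesterol synthesis.

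Among genes, KO 3 was above its group for Ubxn2b (10.8), Neto1 (11.49), Nrsn1 (15.38), Kl (11.21), Ttr (17.56), Igf2 (15.19), Bcat1 (14.32), Pde1b (12.83) and Gfap (13.45). The myelin genes Sox10 (11.38), Hapln2 (10.71) and Ugt8a (14.63) followed, with Laptm5 (11.01), Bag1 (11.14), Eif4ebp1 (7.29), Fkbp5 (12.38), Uchl1 (14.96) and Nefl (16.02). It was below its group for the granule cell genes Fat2 (11.76) and Cbln3 (14.14).

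WT 2 was the lowest WT array for the list of Bergmann glia and astrocytes (12.95), for glutamine and glutamate enzymes (11.36), and for Cct8 (13.48) and Mt1 (16.66). WT 3 was the lowest WT array for Ttr (9.651) and Eif4ebp1 (7.164) and the highest for Bcat1 (12.95). WT 4 was the lowest for Cct4 (12.42) and the highest for Higd1a (10.73).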

How the results depend on the processing

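Limma called 0 genes in the cerebellum, 0 without KO 3 and 0 in the contrast of regions under each setting tried, except the block on the animal number. With that replicate block within the 8 cerebellum arrays, 3 residual degrees of freedom remained and 35 genes were called, 35 higher and 0 lower. Same-numbered WT and KO arrays, which are different animals, deviated together with correlations of 0.183, 0.00711, 0.297 and -0.0293, so the numbers were not taken as pairs. Of the genes named, 14 passed under that block and under no other setting.

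The count at an unadjusted p under 0.05, 1860 in the cerebellum, was 1173 with its 8 arrays alone, 1175 with array weights, 1214 among bright rows (982 higher, 232 lower), 708 with the brainstem covariate, 778 with the 7 arrays other than KO 3 and 503 without KO 3 and WT 2, a setting chosen after seeing the data. Leaving out 1 array gave 688 (without KO 3) to 2391 (without KO 1). Without KO 3, bright rows gave 378 in place of 688. In the contrast of regions bright rows gave 814 in place of 1284, and leaving out 1 array 624 (without KO 3) to 1711 (without KO 1). Bright rows are a subset of the rows, and the other causes were not tested.

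Of 113 genes named for a comparison, 105 kept their sign under 17 settings. With the brainstem covariate Slc1a3 was at 0.19, Gfap at -0.027, Cbln3 at 0.047, Fos at -0.027 and Dbp at -0.043. Without KO 3 and WT 2, Hmox1 was at 0.061, Fos at -0.015 and Dbp at -0.049. With quantile normalization Fos was at -0.00080 and Dbp at -0.0094, with array weights Dbp at -0.014, and with the 7 arrays Fos at -0.00049. Leaving out 1 array gave -0.11 to 0.046 for Aqp4, -0.0028 to 0.22 for Tspo, -0.27 to 0.18 for Hmox1, -0.017 to 0.14 for Fos and -0.021 to 0.21 for Dbp. The difference shrank by over 1.5 times without KO 3 in 42 of the 113 genes and without WT 2 in 9. The number of arrays, 4 per group, and dim signal near the lower end of the scale limit all values.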

Other observations

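Further groups of genes were read the same way, beside 5.97% of all genes at an unadjusted p under 0.05 on the higher side and 3.53% on the lower side. Enzymes of cholesterol synthesis, much of which serves myelin in the brain, were higher in KO in 17 of 19 members (median 0.23), and the median was 0.095 without KO 3. Genes of glycolysis and lactate were higher in 22 of 24, 7 at an unadjusted p under 0.05 (median 0.20, 0.14 without KO 3, 0.052 without WT 2 as well). Those of the citric acid cycle were higher in 20 of 24 (median 0.11, 0.085 without KO 3). The proteasome, which degrades marked proteins, had 31 of 38 subunits higher (median 0.13, 0.074), and the mitochondrial ribosome 60 of 76 (median 0.086, 0.047). Of 87 potassium channel genes 42 were higher (median -0.0071), with 10 at an unadjusted p under 0.05 on the higher side and 5 on the lower side.

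Interferon response genes were higher in 15 of 34 members (median -0.042, -0.083 without KO 3). Endothelial and pericyte markers were higher in 18 of 26 (median 0.18, 0.067 without KO 3), and collagens in 13 of 42 (median -0.066). Markers of meninges and fibroblasts were higher in 12 of 21 with KO 3 (median 0.026) and in 4 of 21 without it (median -0.092). Igf2, a growth factor made by meninges and choroid plexus, read 14.21, 14.78, 13.90 and 14.37 in WT 1 to 4 and 13.68, 13.44, 15.19 and 13.74 in KO 1 to 4. KO 1, KO 2 and KO 4 lay below all WT arrays, KO 3 above them, and the difference was -0.30 with KO 3 and -0.70 without it. Markers of thalamus and midbrain were higher in 13 of 22 (median 0.13). Tcf7l2, a transcription factor of the thalamus and other sites, read 11.01, 13.43, 14.73 and 12.56 in WT 1 to 4 and 14.52, 15.27, 15.46 and 13.34 in KO 1 to 4. WT 1 was the lowest array and WT 3 lay above KO 1 and KO 4, and the difference was 1.71 (SE 0.86; 1.45 without KO 3).

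The 2634 rows without an annotated gene held 0 rows at an adjusted p under 0.05 in limma, with 98 higher and 99 lower at an unadjusted p under 0.05, and 35 and 46 without KO 3.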
